A study of Rattus norvegicus with 18 samples.

Results

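The effect of mechanical stretch (ST) on gene expression in cultured rat ventricular myocytes was set against the effect of tachycardia (TC), gene by gene, to show where the triggers agreed and where they parted. For each gene the stretch effect was the mean log2 level under stretch minus that of its static control, and the pacing effect was the mean log2 level at 8 Hz minus that at 1 Hz. The difference was the stretch effect minus the pacing effect, so that a negative value marks a gene that stood lower under stretch, higher at 8 Hz, or both. The comparison used 12 of the 18 arrays of the series, 3 in each of 4 groups, and no array with the inhibitor of the sodium-calcium exchanger (NCX). Of the 36685 transcript clusters on the array, 14824 carried exactly 1 gene symbol, and the brightest cluster of each symbol stood for 1 of 14557 genes.

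The cells were ventricular myocytes of neonatal rats, cultured for 3 days in serum-free medium after pre-plating and treatment with BrdU, which holds back dividing non-myocytes. The ST cells underwent biaxial cyclic stretch by 20% for 24 h on collagen IV-coated flexible membranes, and the stretch control cells lay unstretched on the same kind of membrane. The TC cells were field-stimulated at 8 Hz for 3 h in gelatin-coated dishes, and the cells of the group that the labels spell tachycradia control were stimulated at 1 Hz for the same time. Trigger, duration, culture surface and type of control therefore changed together between the experiments, and their parts in any difference cannot be told apart. Each array held RNA of 1 of 3 biological replicates, pooled from 2 to 6 technical replicates. The cultures were enriched for myocytes and not pure. In such bulk RNA, fewer cells of a type and less RNA per cell cannot be told apart.

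Strain reaches the myocyte through integrins, the Z-disc and stretch-sensitive channels, while a high stimulation rate raises the turnover of calcium and ATP with each added beat. Both are culture models of load and rate in the diseased heart. Several transcriptional programmes that report on the state of such cells have a known master regulator: ATF4 for the integrated stress response and amino acid supply, HSF1 for cytosolic chaperones, NRF2 for antioxidant enzymes, SREBP2 for cholesterol synthesis, PPAR receptors for fatty acid oxidation, and serum response factor and CREB for immediate early genes.

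The 12 arrays had medians between 5.26 and 5.33 on the log2 scale and correlated with each other at 0.973 to 0.988. In a linear model over all clusters (limma), the difference passed a Benjamini-Hochberg adjusted p of 0.05 in 0 clusters, and its smallest adjusted p was 0.473. Neither effect alone reached that level: the smallest adjusted p was 0.0832 for stretch and 0.698 for pacing. The study's methods name a Benjamini-Hochberg correction for these arrays. Since no cluster passed it here, counts are given at a looser rule, an unadjusted limma p under 0.05 with at least a 1.2-fold change, and "past the threshold" has this meaning throughout. At an unadjusted p under 0.05 alone, the difference numbered 2099 of 36685 clusters, or 5.72%, all of which also reached 1.2-fold. Cardiomyocyte markers were present in all groups, with means over the arrays from 9.97 to 12.8 for Myh6, Tnnt2, Tnni3, Actn2 and Mybpc3.

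Among the 14557 genes, the difference was past the threshold in 776 (5.33%), of which 326 (2.24%) stood on the positive side and 450 (3.09%) on the negative side. Where no gene differs, an unadjusted p under 0.05 is still met at a rate near 0.05. The shares of 5.33% of genes and 5.72% of clusters are close to that rate, so the 776 are not a set of genes shown to differ. The stretch effect alone was past the threshold in 171 of the 326 and 241 of the 450. The pacing effect alone was past it in 54 and 88 of them. Both effects were past it with opposite signs in 8 and 15, and with the same sign in 0. In the other 93 and 106 genes neither effect was past the threshold and only their difference was. The mean effects pointed in opposite directions in 303 of the 326 and 400 of the 450 genes. Choosing genes by a large difference favours effects of opposite sign, so these counts describe the selection and not an opposition of the triggers.

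Genes past the threshold under one trigger had no common direction under the other. The 453 genes (3.11%) that were higher under stretch past the threshold had a median stretch effect of 0.43 on the log2 scale and a median pacing effect of -0.01, and 47.5% of them stood above 0 at 8 Hz. The 561 genes (3.85%) lower under stretch had medians of -0.45 and 0.00, with 49.4% below 0 at 8 Hz. The 254 genes (1.74%) higher at 8 Hz had a median pacing effect of 0.38 and a median stretch effect of -0.01, and the 161 genes (1.11%) lower at 8 Hz had medians of -0.37 and 0.02. Over all genes the median was 0.00 for the stretch effect and -0.01 for the pacing effect, and the median standard error of the difference was 0.21.

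**Figure D1:**
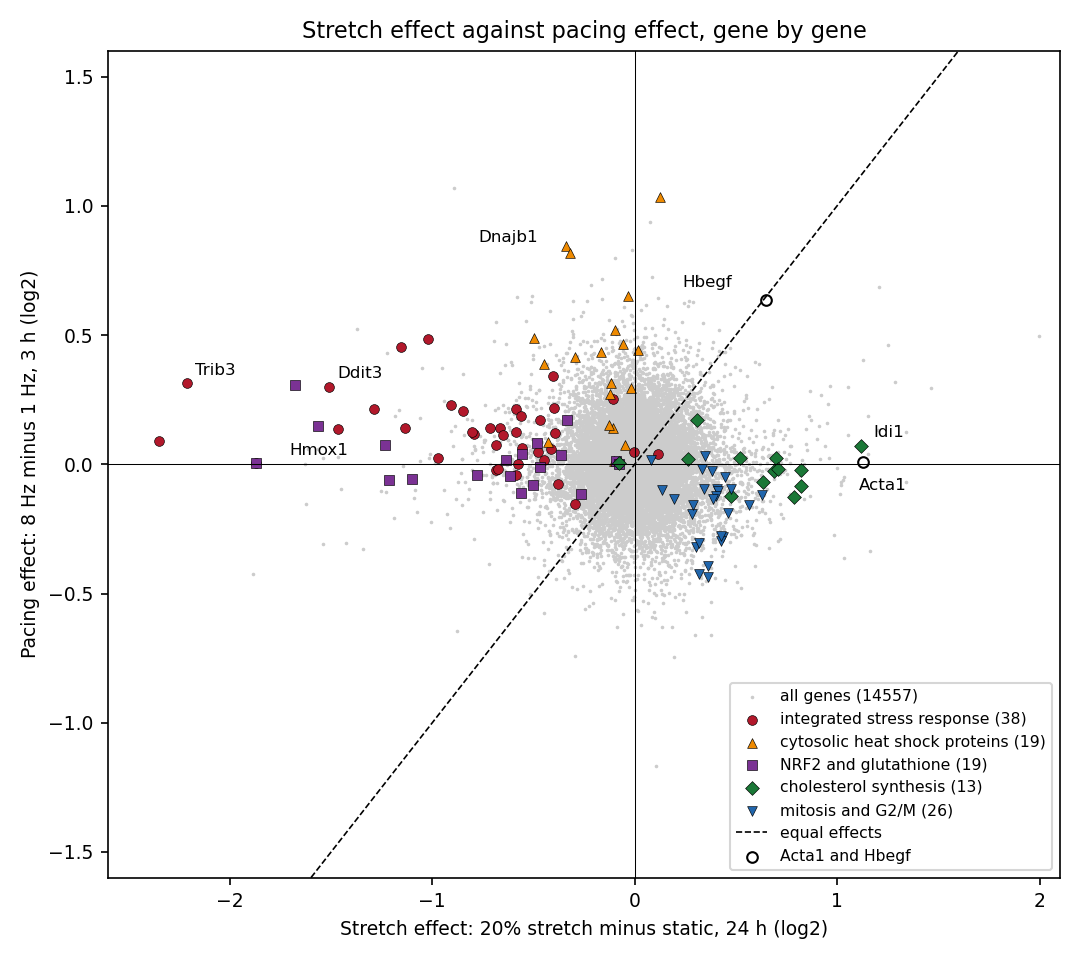
Stretch effect (x axis, log2) against pacing effect (y axis, log2) for each gene, every point 1 gene; coloured markers are the members of 5 lists, the dashed line marks equal effects, and 1 gene lies outside the plotted range. The cloud centres on 0 in both directions, and the integrated stress response genes form a tail to the left, with stretch effects down to -2.35 at pacing effects near 0.

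Among the lists, which were chosen with earlier results of these data known, the integrated stress response separated the triggers most plainly. The shares of list members set against all genes, here and below, are therefore descriptions. Of the 48 genes on this list, 38 were measured, and their median was -0.66 for stretch, 0.12 for pacing and -0.76 for the difference. The stretch effect was past the threshold and negative in 33 of 38 members (86.8%, against 3.85% of all genes), whereas the pacing effect was past it in 0, with 33 of 38 above 0. For the difference, 32 of 38 members (84.2%, against 3.09% of all genes) were past the threshold on the negative side, and 23 of those 32 stayed past it whichever single array was left out. The mean deviation of the list from its control lay at -0.64, -0.89 and -0.81 on the ST arrays, at -0.14, 0.18 and -0.04 on the static arrays, at -0.06, 0.23 and 0.22 on the TC arrays and at -0.08, 0.19 and -0.11 on the 1 Hz arrays. All 3 ST arrays thus lay below all others, and the TC arrays overlapped their controls.

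Trib3, a pseudokinase that feeds back on ATF4, had the most negative difference of the list. It read 8.90, 9.52 and 9.31 on the static arrays and 7.23, 6.81 and 7.06 on the ST arrays, against 7.75, 8.53 and 8.07 at 1 Hz and 7.76, 8.63 and 8.90 at 8 Hz. The ST arrays did not overlap their controls, and the TC arrays did. The mean stood 4.64-fold lower under stretch, the pacing effect was 0.31, and the difference was -2.53 ± 0.41 (SE, n = 3 arrays per group; 95% CI -3.43 to -1.62; limma adjusted p = 0.473).

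Slc3a2, the heavy chain shared by several amino acid exchangers, read 10.08, 10.70 and 10.39 on the static arrays and 9.13, 8.73 and 8.91 on the ST arrays. Under pacing it read 9.45, 9.87 and 9.41 at 1 Hz and 9.52, 9.90 and 9.72 at 8 Hz. Again the ST arrays lay wholly below their controls and the pacing groups overlapped, with a difference of -1.61 ± 0.27. Atf4 itself, the transcription factor at the head of the pathway, read 11.47, 11.75 and 11.64 on the static arrays, 11.04, 10.84 and 10.92 on the ST arrays, 11.46, 11.63 and 11.30 at 1 Hz and 11.49, 11.63 and 11.49 at 8 Hz. Its difference was -0.76 ± 0.17, smaller than that of several of its target genes.

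Further members followed the same pattern. Differences were -1.81 ± 0.63 for Ddit3 (CHOP, a pro-apoptotic factor downstream of ATF4), -0.996 ± 0.20 for Atf5 and -1.27 ± 0.22 for the glycine transporter Slc6a9. Gdf15, a secreted stress cytokine, had the most negative stretch effect of the list, -2.35, with a pacing effect of 0.09. For Chac1, which degrades glutathione, the effects were -1.29 and 0.21. Atf3 stood at -1.02 under stretch and 0.48 at 8 Hz, and its difference of -1.503 ± 0.55 was no longer past the threshold without 1 Hz replicate 3 or TC replicate 2 (-1.31 to -1.24). The amino acid transporter Slc38a2 had a difference of -0.36, and Cth, which makes cysteine, was the only measured member above 0, at 0.08. Atf5 and Ddit3 overlap other gene models in the current annotation, so part of their signal may come from those.

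The promoters of these genes can be read beside the values. ATF4 pairs with C/EBP proteins on a composite element, searched here as TGATGNAA on both strands. The window was the 250 bases before each start in the RefSeq promoter table of the rat build GRCr8. It was found in 10 of the 34 members with a promoter sequence (29.4%) and in 320 of 11725 promoters of measured genes (2.73%). Of these 10 members 9 were past the threshold for the difference, as were 21 of the 24 members without it. A match is a description of letters and not a shown binding site. The 60-base stretches below were chosen to show the element in an ATF4 feedback gene, a glutathione enzyme, 2 amino acid transporters and 2 aminoacyl-tRNA synthetases, with the element in capitals. They lie at chr3:161275534-161275593 on the minus strand (Trib3), chr3:126795938-126795997 on the plus strand (Chac1), chr12:11664428-11664487 on the plus strand (Slc7a1), chr14:98761753-98761812 on the minus strand (Slc1a4), chr17:15193653-15193712 on the minus strand (Iars1) and chr19:55908344-55908403 on the plus strand (Aars1).
Trib3: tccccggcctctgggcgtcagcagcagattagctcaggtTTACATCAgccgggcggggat
Chac1: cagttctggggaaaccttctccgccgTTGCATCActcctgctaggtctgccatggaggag
Slc7a1: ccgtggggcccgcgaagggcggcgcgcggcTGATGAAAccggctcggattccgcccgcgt
Slc1a4: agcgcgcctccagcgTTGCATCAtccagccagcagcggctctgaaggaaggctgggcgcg
Iars1: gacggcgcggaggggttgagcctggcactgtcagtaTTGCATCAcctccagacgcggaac
Aars1: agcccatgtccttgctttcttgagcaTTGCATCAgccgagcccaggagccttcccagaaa

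The 5 elements other than that of Slc7a1 are written as the reverse complement, since they lie on the opposite strand. The differences of these 6 genes were -2.53 for Trib3, -1.504 for Chac1, -1.14 for the arginine transporter Slc7a1, -1.06 for the neutral amino acid transporter Slc1a4, -0.47 for the isoleucyl-tRNA synthetase Iars1 and -0.80 for the alanyl-tRNA synthetase Aars1.

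**Figure D2:**
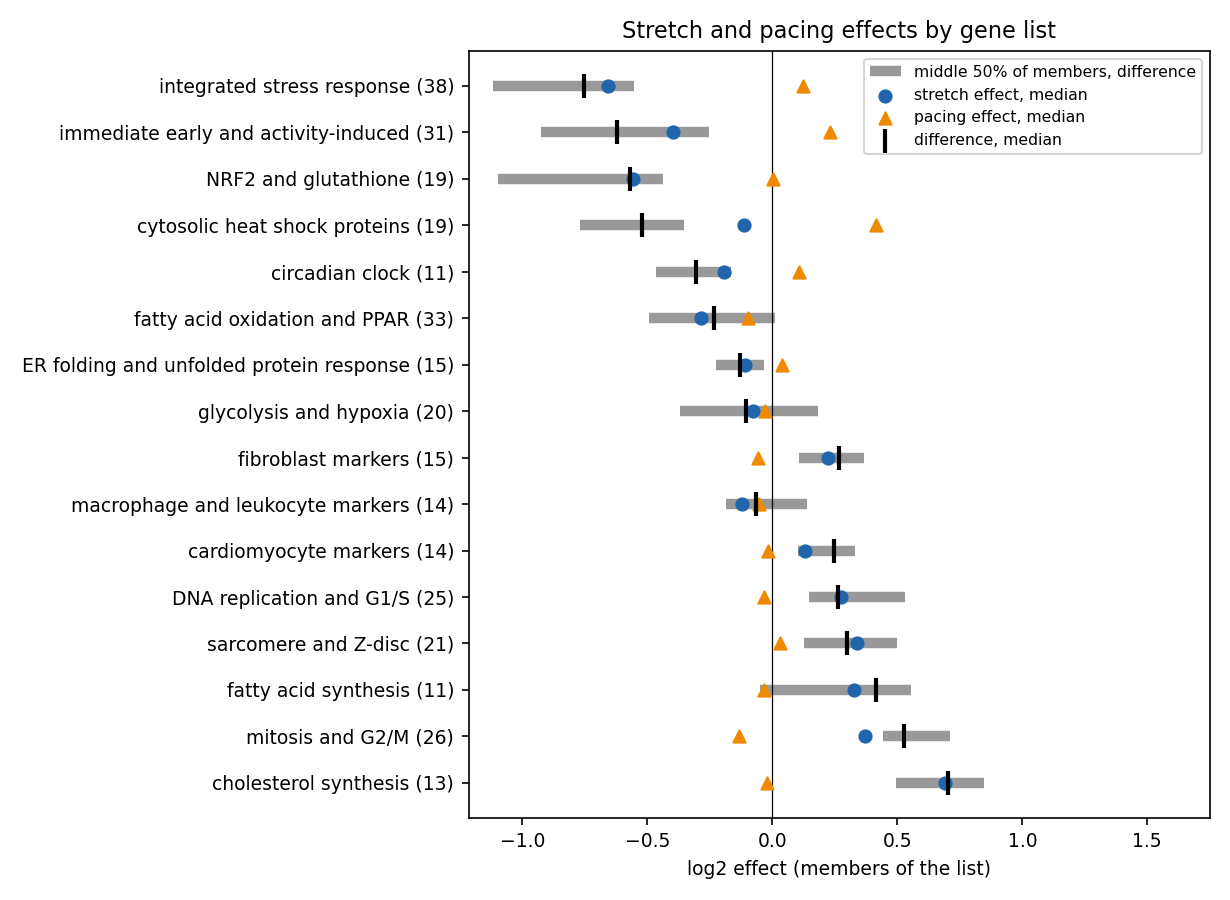
Median stretch effect (circles), median pacing effect (triangles) and median difference (black ticks) for 16 gene lists, with the number of measured members in parentheses and the x axis in log2 units; grey bars span the middle 50% of the members' differences. Circles leave 0 in either direction with triangles near 0 in most lists, and the cytosolic heat shock proteins are the list whose triangle, at 0.41, lies farther from 0 than its circle, at -0.11.

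The cytosolic heat shock proteins differed more through pacing than through stretch by the list medians, though 17 of 19 stretch effects lay below 0. In 4 members all ST arrays lay below their controls, and in 0 did all 8 Hz arrays lie above theirs. The list held 19 measured genes of 25, and its median was -0.11 for stretch, 0.41 for pacing and -0.52 for the difference. At 8 Hz all 19 members had a mean above that of their controls, 5 of them past the threshold (26.3%, against 1.74% of all genes). In a fit with the same-numbered arrays of an experiment as a block, called the replicate block below, 10 were (against 2.43% of all genes). The difference was past the threshold and negative in 9 members (47.4%, against 3.09% of all genes). The mean deviation of the list was -0.20, 0.42 and -0.22 on the 1 Hz arrays and 0.15, 0.54 and 0.55 on the TC arrays. Replicate 2 of the 1 Hz group thus lay above TC replicate 1 and near the other TC arrays, and on the ST arrays the list lay at -0.22, -0.05 and -0.24. Without that 1 Hz array the count was 14 and the median -0.82. The count was 2 without static replicate 2, 1 Hz replicate 1, 1 Hz replicate 3, TC replicate 2 or TC replicate 3, 4 without ST replicate 3, and 5 without static replicate 3 or ST replicate 1.

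Hsph1, a large chaperone of the HSP110 family, read 10.06, 11.34 and 10.05 at 1 Hz and 10.75, 11.56 and 11.60 at 8 Hz. On the static arrays it read 9.72, 9.95 and 9.80 and on the ST arrays 9.59, 9.62 and 9.31. The 8 Hz arrays overlapped their controls only through 1 Hz replicate 2, and the difference was -1.13 ± 0.46. Fkbp4, a co-chaperone of HSP90, read 9.06, 9.79 and 9.30 at 1 Hz and 9.70, 10.09 and 10.32 at 8 Hz, against 9.22, 9.28 and 9.13 on the static arrays and 9.25, 9.23 and 9.05 on the ST arrays. Its pacing effect was 0.65 and its stretch effect -0.04, with a difference of -0.69 ± 0.27. Both differences missed the threshold in 6 of the 12 fits that left out 1 array: those without static replicate 2, ST replicate 3, 1 Hz replicate 1, 1 Hz replicate 3, TC replicate 2 and TC replicate 3, where they were -1.07 to -0.92 for Hsph1 and -0.66 to -0.52 for Fkbp4.

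Bag3, a co-chaperone that guards the Z-disc, combined both directions, with a stretch effect of -0.50 and a pacing effect of 0.49. Its difference of -0.99 ± 0.34 stayed past the threshold with any single array left out (-1.22 to -0.85). The same was true of Hsf1, the master regulator, at -0.51 ± 0.16, which differed by a stretch effect of -0.43 and not by pacing (0.09). The small heat shock proteins Hspb8 and Hspb1 had differences of -0.83 and -0.71. For stretch and pacing the effects were -0.45 and 0.39 in Hspb8, and -0.29 and 0.41 in Hspb1. Hspb8 missed the threshold without static replicate 2 or 3, ST replicate 1 or 3, 1 Hz replicate 1 or 3, or TC replicate 2 or 3 (-0.79 to -0.70). Hspb1 missed it without static replicate 1 or 2, ST replicate 3, 1 Hz replicate 1 or 3, or TC replicate 2 or 3 (-0.75 to -0.50). Cryab, an abundant small heat shock protein of muscle, stood at -0.12 ± 0.12.

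HSF1 binds arrays of short repeats, and the core searched here was GAANNTTC, which is its own reverse complement. It was found in 8 of the 15 heat shock members with a promoter sequence (53.3%) and in 692 of 11725 promoters of measured genes (5.9%), and in 0% to 11.8% of the promoters of the 5 other lists searched. Of the 8 members with the core 6 were past the threshold for the difference, and of the 7 without it 2 were. The stretches below are those of the 6 members with the core that were past the threshold, core in capitals, at chr12:10427308-10427367 on the plus strand (Hsph1), chr19:41431142-41431201 on the minus strand (Dnajb1), chr1:192533302-192533361 on the plus strand (Bag3), chr4:163398022-163398081 on the minus strand (Fkbp4), chr12:45837248-45837307 on the plus strand (Hspb8) and chr12:26432397-26432456 on the minus strand (Hspb1, which holds 2 cores).
Hsph1: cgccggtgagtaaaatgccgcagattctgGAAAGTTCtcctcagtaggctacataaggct
Dnajb1: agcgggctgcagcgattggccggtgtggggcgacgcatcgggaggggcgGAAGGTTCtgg
Bag3: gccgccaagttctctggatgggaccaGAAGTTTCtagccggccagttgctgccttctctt
Fkbp4: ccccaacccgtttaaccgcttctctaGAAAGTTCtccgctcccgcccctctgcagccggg
Hspb8: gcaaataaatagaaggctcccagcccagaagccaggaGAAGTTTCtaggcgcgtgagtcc
Hspb1: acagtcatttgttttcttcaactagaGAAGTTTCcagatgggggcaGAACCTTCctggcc

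Immediate early genes, which are transcribed within minutes of a stimulus, combined lower levels under stretch with slightly higher levels at 8 Hz. Of 31 measured members of 35, 13 were past the threshold and lower under stretch (41.9%, against 3.85% of all genes). Arc and Egr4 were past it and higher at 8 Hz (6.45%, against 1.74% of all genes), as were 9 members under the replicate block (against 2.43%). The list medians were -0.40 for stretch, 0.23 for pacing and -0.62 for the difference, which was past the threshold and negative in 14 members (45.2%, against 3.09% of all genes). That count was 9 without static replicate 3 or ST replicate 3, 8 without 1 Hz replicate 3 and 7 without TC replicate 2. The mean deviation was -0.35, -0.41 and -0.47 on the ST arrays, -0.08, 0.40 and -0.33 on the 1 Hz arrays and -0.01, 0.54 and 0.13 on the TC arrays, so that the pacing groups overlapped and replicate 2 was the highest array of each.

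Myc, a transcription factor of growth, had the smallest p of the list. It read 9.10, 9.86 and 9.38 on the static arrays, 8.26, 8.22 and 8.30 on the ST arrays, 9.86, 10.08 and 9.46 at 1 Hz and 9.98, 9.96 and 10.02 at 8 Hz. The ST arrays lay below all the others, at a level 2.27-fold lower than that of their controls, and the difference was -1.37 ± 0.27. Fos, a subunit of AP-1, read 6.99, 7.23 and 7.31 on the static arrays, 6.20, 6.12 and 6.35 on the ST arrays, 7.72, 8.42 and 7.26 at 1 Hz and 7.80, 8.78 and 7.93 at 8 Hz, and its difference was -1.33 ± 0.42. In Fos the 1 Hz group already stood above the static group on average, so the controls of the experiments did not share a level.

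The nuclear receptor Nr4a1 (-1.42 ± 0.42), the mRNA-decay factor Zfp36 (-0.97 ± 0.28) and the MAP kinase phosphatase Dusp4 (-0.88 ± 0.26) were past the threshold in all 12 fits with 1 array left out. Egr1, a zinc finger factor, stood at -0.76 ± 0.30 and missed it without static replicate 3, ST replicate 1 or 2, 1 Hz replicate 1 or 3, or TC replicate 2 (-0.75 to -0.59). Arc, a synaptic activity gene, differed through pacing (0.41) more than through stretch (-0.21). Srf itself stood at 0.14 ± 0.16. Odc1, the first enzyme of polyamine synthesis and a known target of Myc, was among the 10 most negative differences by p over all genes, with 10.19, 10.60 and 10.20 on the static arrays, 9.55, 9.30 and 9.11 on the ST arrays, 9.50, 9.89 and 9.70 at 1 Hz and 9.62, 9.87 and 9.72 at 8 Hz. Its ST arrays lay below all their controls, and the difference was -1.05 ± 0.23.

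**Figure D3:**
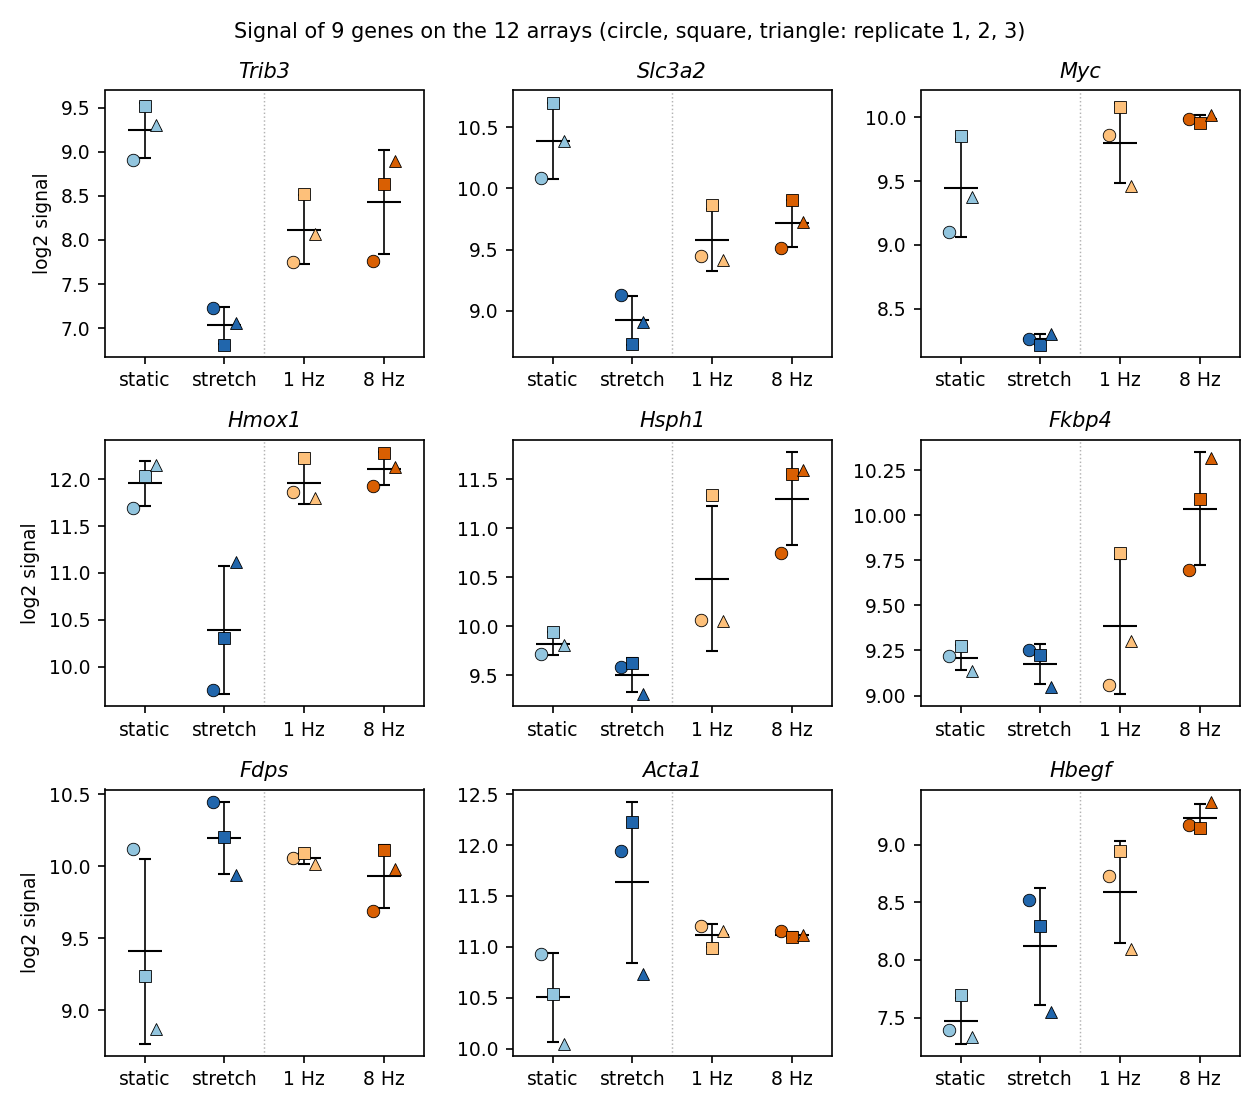
Log2 level (y axis) of 9 genes on every array (points, shaped by replicate) with the group mean and SD (bars, n = 3), static and ST arrays to the left of the dotted line and 1 Hz and TC arrays to the right. In Trib3, Myc and Hmox1 the ST arrays sit apart from the 3 other groups, and in Hsph1 the TC arrays lie above their controls except for 1 Hz replicate 2.

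NRF2 targets and glutathione genes stood lower under stretch and level under pacing. All 19 of 19 measured members (28 listed) were below 0 for stretch, 14 of them past the threshold (73.7%, against 3.85% of all genes), and 0 were past it for pacing. The medians were -0.56, 0.00 and -0.57 for stretch, pacing and the difference. The difference was past the threshold in 6 members (31.6%, against 3.09% of all genes), a count that was 11 without static replicate 1 or 1 Hz replicate 2, 12 without ST replicate 3 and 4 to 8 without any other array. It was 15 under the replicate block (against 4.82% of all genes). The list lay at -1.03, -0.82 and -0.43 on the ST arrays, and replicate 3 was the closest to its control.

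Hmox1, heme oxygenase, read 11.69, 12.03 and 12.15 on the static arrays and 9.75, 10.31 and 11.11 on the ST arrays. At 1 Hz it read 11.87, 12.22 and 11.80 and at 8 Hz 11.93, 12.28 and 12.13. The ST arrays spanned more than a unit yet all lay below the lowest control, and the difference was -1.71 ± 0.40. Osgin1 (-1.98 ± 0.48), the thioredoxin reductase Txnrd1 (-1.31 ± 0.38) and Nfe2l2, which encodes NRF2 itself (-0.57 ± 0.17), were also past the threshold with any 1 array left out. Gclm, the modifier subunit of glutamate-cysteine ligase, stood at -1.15 ± 0.43 and missed it without ST replicate 1, 1 Hz replicate 3 or TC replicate 2 (-1.01 to -0.87). Nqo1, a quinone reductase, stood at -1.05 ± 0.49 and was not past the threshold, but was so under the replicate block. Eid3, with a stretch effect of -1.63 and a pacing effect of 0.00, lies inside the Txnrd1 gene in the current annotation, so that its signal cannot be told apart from that of Txnrd1.

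Cholesterol synthesis genes stood higher under stretch and level under pacing. Of 13 measured genes of 23, 10 were past the threshold and higher under stretch (76.9%, against 3.11% of all genes), and 0 were past it for pacing. The list medians were 0.69, -0.02 and 0.70, and the difference was past the threshold on the positive side in 7 members (53.8%, against 2.24% of all genes). The static arrays spread widely, at 0.50, -0.18 and -0.32, and the ST arrays lay at 0.83, 0.59 and 0.37, so that static replicate 1 overlapped them. The count was 1 without static replicate 2, static replicate 3 or ST replicate 1, 2 without 1 Hz replicate 2, and 3 without ST replicate 2, TC replicate 1 or TC replicate 3, with medians from 0.53 to 0.98 over all such fits.

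Fdps, which makes farnesyl diphosphate, read 10.12, 9.24 and 8.87 on the static arrays and 10.44, 10.21 and 9.94 on the ST arrays. At 1 Hz it read 10.05, 10.09 and 10.02 and at 8 Hz 9.69, 10.12 and 9.98. Static replicate 1 overlapped the ST arrays and the pacing groups overlapped each other. The difference was 0.91 ± 0.37, and it missed the threshold without static replicate 2 or 3, ST replicate 1 or 2, 1 Hz replicate 1 or 2, or TC replicate 1 (0.64 to 0.91). Squalene synthase, Fdft1, had a difference of 0.91 ± 0.32 and was past the threshold in all 12 such fits (0.73 to 1.22). Nsdhl (0.85 ± 0.34) missed it without static replicate 2 or 3, ST replicate 1, 1 Hz replicate 2, or TC replicate 1 or 3 (0.65 to 0.83). Sqle (0.73 ± 0.30) missed it without static replicate 2 or 3, ST replicate 1 or 2, 1 Hz replicate 2, or TC replicate 3 (0.57 to 0.69). The sterol sensor Insig1 stood at -0.08 ± 0.23, and Srebf2, which encodes SREBP2, at 0.24 ± 0.24.

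The fatty acid synthesis list had medians of 0.32 for stretch, -0.04 for pacing and 0.41 for the difference over 11 genes. The acetyl-CoA synthetase Acss2 (0.59 ± 0.21) was past the threshold. Scd, the stearoyl-CoA desaturase, stood at 1.09 ± 0.66, with effects of 1.03 and -0.06, and was not, but was so under the replicate block or without static replicate 1. Without static replicate 1 the list median was 0.66 and 5 members were past the threshold, and under the replicate block 7 were (against 4.84% of all genes).

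Genes of fatty acid oxidation and PPAR targets stood lower under stretch and leaned slightly lower at 8 Hz. Below 0 were 28 of 33 members for stretch and 27 for pacing. For pacing 1 member was past the threshold and lower (3.03%, against 1.11% of all genes). Of 33 measured members of 35, 13 were past the threshold and lower under stretch (39.4%, against 3.85% of all genes) and 1 higher (3.03%, against 3.11%). The medians were -0.28, -0.10 and -0.23 for stretch, pacing and the difference. The difference was past the threshold and negative in 8 members (24.2%, against 3.09% of all genes). Under the replicate block 13 were (against 4.82% of all genes). The median difference was -0.08 without ST replicate 1 and -0.15 without 1 Hz replicate 2. Acot2, a mitochondrial acyl-CoA thioesterase, read 6.97, 8.17 and 7.29 on the static arrays, 5.495, 5.91 and 6.18 on the ST arrays, 5.32, 5.93 and 5.75 at 1 Hz and 5.49, 5.88 and 5.80 at 8 Hz, and its difference was -1.67 ± 0.41. Its controls did not share a level, with means of 7.48 on the static arrays and 5.67 at 1 Hz.

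Pdk4, a kinase that shuts glucose carbon out of the mitochondrion, stood 2.58-fold lower under stretch and at 0.52 at 8 Hz, a difference of -1.89 ± 0.66. Angptl4, an inhibitor of lipoprotein lipase, was negative in both experiments (-1.89 and -0.42), and its difference was -1.46 ± 0.47. The muscle carnitine palmitoyltransferase Cpt1b (-0.99), the acyl-CoA synthetase Acsl1 (-0.84) and the trifunctional protein subunit Hadhb (-0.71) stayed past the threshold with any 1 array left out. The coactivator Ppargc1a was the exception on the positive side, at 0.70 ± 0.29, and missed the threshold without static replicate 2 or 3, ST replicate 1 or 2, 1 Hz replicate 3, or TC replicate 2 or 3 (0.55 to 0.69). Ppara itself stood at 0.12 ± 0.34.

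Glucose uptake and hypoxia genes had list medians near 0 (-0.08, -0.03 and -0.11 over 20 genes), while 5 members (25%, against 3.09% of all genes) were past the threshold on the negative side. They were hexokinase Hk2 (-0.79 ± 0.19), the vasodilator peptide Adm (-1.24 ± 0.40), the glucose transporters Slc2a1 (-0.65) and Slc2a4 (-0.67), and the HIF prolyl hydroxylase Egln3 (-0.56), which missed the threshold without static replicate 1 or 2, ST replicate 3, 1 Hz replicate 3 or TC replicate 2 (-0.52 to -0.41). The list median was 0.00 without TC replicate 2. Of the endoplasmic reticulum list 3 of 15 members were past it (20%, against 3.09% of all genes), Herpud1 (-0.76), Atf6 (-0.63) and Dnajb9 (-0.72), while the lumenal chaperone Hspa5 stood at -0.24 ± 0.14. Dnajb9 missed the threshold without static replicate 2, ST replicate 1, 1 Hz replicate 1 or 3, or TC replicate 2 or 3 (-0.67 to -0.60). Of the circadian list 3 of 11 were past it (27.3%, against 3.09% of all genes), Nfil3 (-0.77), Bhlhe40 (-0.69) and Cry1 (-0.44). Among the 12 fits that left out 1 array, Bhlhe40 was past the threshold only without ST replicate 2, 1 Hz replicate 2 or TC replicate 1, and Cry1 only without static replicate 1, ST replicate 1 or 2, 1 Hz replicate 2 or TC replicate 1. Per2 (-0.35) and Per3 (-0.31) were not past it, and the count was 1 in the fit with every array centred on its median.

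**Figure D4:**
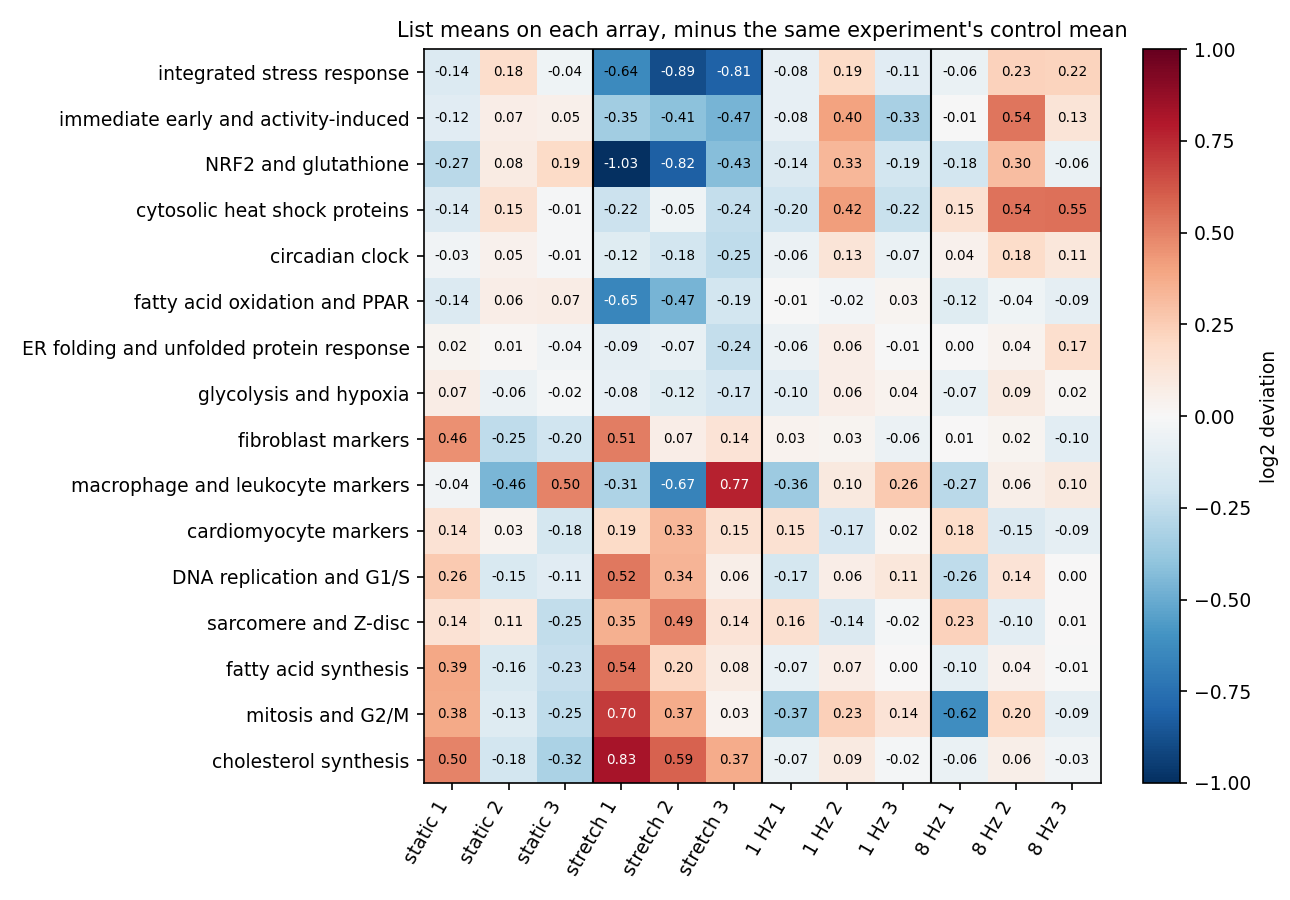
Heat map of 16 gene lists (rows) on the 12 arrays (columns, with stretch for ST and 8 Hz for TC): colour and printed value give the mean log2 level of the list's members minus the mean of the same experiment's control group. The ST arrays of the integrated stress response lie between -0.89 and -0.64, the cholesterol static arrays spread from -0.32 to 0.50, and replicate 2 is the highest 1 Hz array of the heat shock list at 0.42.

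Mitotic genes leaned higher under stretch and lower at 8 Hz. All 26 of 26 measured members had a stretch effect above 0 and 24 a pacing effect below 0, with medians of 0.37, -0.13 and 0.52, and 2 differences (7.69%, against 2.24% of all genes) were past the threshold, and for the pacing effect 1 (Bora, against 2.85% of all genes in either direction). The mean deviations were 0.38, -0.13 and -0.25 on the static arrays, 0.70, 0.37 and 0.03 on the ST arrays, -0.37, 0.23 and 0.14 at 1 Hz and -0.62, 0.20 and -0.09 at 8 Hz, so the groups overlapped in both experiments. Under the replicate block 20 differences (against 4.84% of all genes) and 19 stretch effects (against 5.5%) were past the threshold on the positive side, where without the block each numbered 2. Each ST array lay above the static array of its number and each TC array below the 1 Hz array of its number. The median difference was 0.32 without TC replicate 1, and the count ranged from 1 to 6 over the fits with 1 array left out. In cultures treated with BrdU, and enriched rather than pure, the cells that carry these transcripts were not identified.

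Bora, an activator of the mitotic kinase Aurora A, had the smallest p of the list. It read 6.87, 6.63 and 6.97 on the static arrays, 7.33, 7.07 and 7.16 on the ST arrays, 6.57, 6.61 and 6.61 at 1 Hz and 6.33, 5.84 and 6.31 at 8 Hz. Neither pair of groups overlapped, stretch being higher and 8 Hz lower than its control, and the difference was 0.80 ± 0.21. The gene model overlaps that of Dis3. Foxm1, the transcription factor of mitotic genes, stood at 0.65 ± 0.29 and missed the threshold without static replicate 2 or 3, ST replicate 1 or 2, 1 Hz replicate 2 or 3, or TC replicate 1 or 3 (0.46 to 0.68). Among DNA replication genes, the primase Prim1 (0.59 ± 0.16) and the cyclin Ccne2 (0.80 ± 0.28) were past the threshold in all 12 such fits. That list had medians of 0.28, -0.03 and 0.26 over 25 genes. Its median difference was 0.42 without static replicate 1, with 9 members past the threshold, and 0.15 without ST replicate 1, with 2. The count was 8 under the replicate block (against 4.84% of all genes).

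The sarcomere list had medians of 0.34 for stretch, 0.03 for pacing and 0.30 for the difference, with 2 of 21 differences past the threshold (9.52%, against 2.24% of all genes). The median was 0.18 without static replicate 3, and the count ranged from 0 to 4 over the fits with 1 array left out and was 6 under the replicate block (against 4.84% of all genes). Acta1, skeletal alpha-actin and a marker of the hypertrophic programme, read 10.93, 10.53 and 10.05 on the static arrays and 11.94, 12.22 and 10.73 on the ST arrays, against 11.20, 10.99 and 11.15 at 1 Hz and 11.15, 11.10 and 11.11 at 8 Hz. ST replicate 3 overlapped its controls, and the pacing effect was 0.01. The difference was 1.12 ± 0.46 (95% CI 0.10 to 2.14), and among the fits that left out 1 array it was past the threshold only without static replicate 1, ST replicate 3 or 1 Hz replicate 2, and stood at 0.82 to 1.14 in the other 9. Mybpc3, myosin-binding protein C, stood at 0.71 ± 0.32 and was past it in 4 of those 12 fits, without static replicate 1, ST replicate 3, 1 Hz replicate 2 or TC replicate 1, and at 0.51 to 0.78 in the others.

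The natriuretic peptides stood close to 0 for the difference. Nppa read 12.70, 12.63 and 11.99 on the static arrays, 12.91, 12.98 and 12.28 on the ST arrays, 12.76, 12.40 and 12.56 at 1 Hz and 12.83, 12.36 and 12.59 at 8 Hz, a difference of 0.26 ± 0.33 (95% CI -0.46 to 0.98). For Nppb it was 0.08 ± 0.28 (95% CI -0.54 to 0.70). In both genes ST overlapped its control and TC overlapped its own, and intervals this wide leave room for differences in both directions. Rcan1, Fhl1 and the exchanger gene Slc8a1 had no cluster of exactly 1 symbol and were not analysed here. The lists of mechanosensitive YAP and SRF targets (0.11, 21 genes), integrins and focal adhesions (0.14, 20 genes) and collagens and matrix (0.15, 29 genes) had small median differences and 0 members past the threshold. Under the replicate block 1, 2 and 6 differences of these lists were past the threshold on the positive side (against 4.84% of all genes).

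Few genes were past the threshold in both experiments. Of 14557 genes, 14 (0.0962%) were so in the same direction and 23 (0.158%) in opposite directions. Past the threshold in either direction were 6.97% of genes for stretch and 2.85% for pacing. Some genes would thus be past both if the effects were unrelated, and the counts are descriptions. Some of these genes lay below 3.79, the lower quartile of all clusters, such as Or7e171d (mean level 2.03) and Slpi-ps2 (2.47). By the arrays alone, without a threshold, 46 genes (0.316%) had all ST arrays below and all TC arrays above their controls, and 25 (0.172%) the reverse. The same-direction count was 7 without 1 Hz replicate 1, 9 without TC replicate 3 and 26 without TC replicate 2. The opposite count was 47 without 1 Hz replicate 2, 14 without 1 Hz replicate 1, 13 without 1 Hz replicate 3, 12 without static replicate 2 and 11 without TC replicate 3. Under the replicate block the counts were 31 and 43.

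Hbegf, a ligand of the EGF receptor that is shed from the membrane, stood higher under both triggers by nearly the same amount. It read 7.39, 7.70 and 7.33 on the static arrays and 8.52, 8.29 and 7.55 on the ST arrays. Under pacing it read 8.73, 8.95 and 8.10 at 1 Hz and 9.17, 9.14 and 9.37 at 8 Hz. ST replicate 3 overlapped its controls, and the 8 Hz arrays all lay above theirs. The 1 Hz mean of 8.59 stood above the ST mean of 8.12 and the static mean of 7.47. For Hbegf, too, the controls of the experiments thus did not share a level. The effects were 0.65 and 0.64 and the difference 0.01 ± 0.37 (95% CI -0.80 to 0.82), an interval that allows either effect to exceed the other by more than 1.5-fold.

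Cep19, a centrosomal protein whose gene model overlaps Pigx, also stood higher in both (0.44 and 0.34). Its ST arrays overlapped their controls, with static replicate 3 at 8.49 and ST replicate 3 at 8.47, and its 8 Hz arrays lay above theirs. On the negative side were Cntf, a neurotrophic cytokine (-0.48 and -0.44, 95% CI of the difference -0.51 to 0.42), Lmbr1 (-0.36 and -0.37), Cnksr1, a scaffold of Ras signalling (-0.43 and -0.33), and Terc, the RNA component of telomerase (-0.72 and -0.38, 95% CI -0.76 to 0.09).

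**Figure D5:**
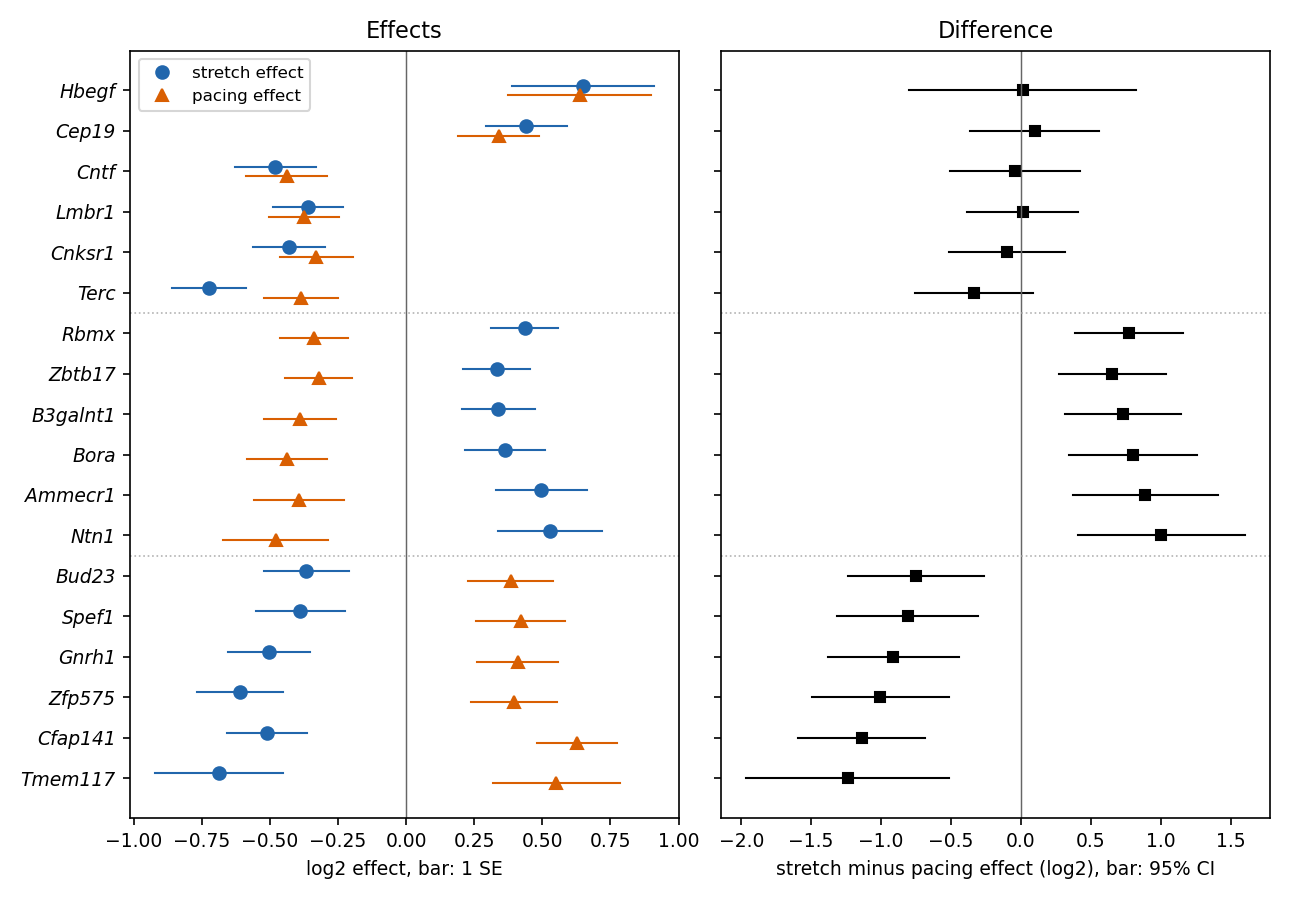
Left panel, stretch effect and pacing effect (log2, bar 1 SE) of 18 genes past the threshold in both experiments; right panel, their difference with its 95% confidence interval. The 6 genes on the same side in both experiments have intervals that include 0, and the 12 on opposite sides lie at least 0.65 from 0.

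Of the genes with opposite directions, Cfap141, a ciliary protein gene, stood lower under stretch and higher at 8 Hz. It read 6.503, 6.596 and 6.52 on the static arrays, 5.72, 6.38 and 5.98 on the ST arrays, 5.94, 6.08 and 6.00 at 1 Hz and 6.6, 6.57 and 6.73 at 8 Hz. Neither pair of groups overlapped, and the difference was -1.14 ± 0.21. In the same direction were Tmem117 (-0.69 and 0.55), Zfp575 (-0.61 and 0.40), Gnrh1, the gonadotropin-releasing hormone (-0.50 and 0.41), Spef1 (-0.39 and 0.42) and Bud23, an rRNA methyltransferase (-0.37 and 0.38). Higher under stretch and lower at 8 Hz were, besides Bora, the axon guidance ligand Ntn1 (0.53 and -0.48), Ammecr1 (0.50 and -0.39), the RNA-binding protein Rbmx (0.44 and -0.34), the glycosyltransferase B3galnt1 (0.34 and -0.39) and Zbtb17, a partner of Myc (0.33 and -0.32).

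Outside the lists, the positive differences of smallest p included Prss23, a secreted serine protease, at 1.09 ± 0.26. It read 9.56, 8.89 and 9.26 on the static arrays and 10.29, 10.48 and 9.996 on the ST arrays, without overlap, and 11.13, 10.77 and 10.91 at 1 Hz and 10.99, 10.72 and 10.90 at 8 Hz. The tubulin Tuba4a (0.63 ± 0.16) and the regulatory subunit of PI3-kinase Pik3r3 (0.70 ± 0.18) likewise differed through stretch (0.60 and 0.77). Pot1, a protein of the telomere end, differed through pacing: it read 6.76, 6.71 and 7.002 at 1 Hz and 6.21, 6.33 and 6.22 at 8 Hz, with effects of 0.02 for stretch and -0.57 for pacing. The magnesium transporter Slc41a1 took its difference of 0.55 ± 0.14 from both sides (0.22 and -0.33). Hist3h2ba stood at 1.496 ± 0.37, and as one of several near-identical histone genes its signal may include theirs. Pelo, a ribosome rescue factor whose gene lies inside Itga1, stood at -0.84 ± 0.17.

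Markers of other cells were present in all 4 groups. The 6 fibroblast markers were all measured and well above the dimmest clusters, with array means from 8.18 to 8.95 in the static group, 8.46 to 8.996 in the ST group, 8.99 to 9.29 at 1 Hz and 8.99 to 9.18 at 8 Hz. The longer fibroblast list had 14 of 15 differences above 0, a median of 0.27 and 0 past the threshold. Its static arrays lay at 0.46, -0.25 and -0.20 and its ST arrays at 0.51, 0.07 and 0.14, so that replicate 1 was the highest of both groups. Under the replicate block 2 of its differences (against 4.84% of all genes) and 7 of its stretch effects (against 5.5%) were past the threshold and higher. The 6 macrophage and leukocyte markers varied most between replicates, with array means from 6.72 to 8.16 in the static group and from 6.56 to 8.56 in the ST group, and the longer list of 14 genes had a median difference of -0.06 with 0 past the threshold. For the 3 endothelial markers measured the array means lay between 5.27 and 5.98. The part of these cells in the differences above was not tested.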

How the data were processed

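The deposited table held log2 expression values of 36685 transcript clusters of the Rat Gene 2.0 ST array for 18 arrays. The authors made these log2 values before deposit with Partek Genomics Suite, as their methods name it; background correction, normalisation and summarisation are not given in the sources used here. The labels number 3 biological replicates per group, each pooled from technical replicates of 1 isolation. From GEO's probe annotation, 14824 clusters had 1 symbol, 829 several and 21032 none. The 12 arrays without inhibitor were fitted with limma (3.58.1, R 4.3.3) as 4 groups in 1 model with 8 residual degrees of freedom, and the 3 contrasts were tested two-sided with Benjamini-Hochberg adjustment over all clusters. The study's methods name a two-way ANOVA with Benjamini-Hochberg correction for the arrays, and a p under 0.05 with 1.2-fold for its gene sets. Since 0 clusters passed the correction here, counts use an unadjusted p under 0.05 with 1.2-fold, which is looser than a corrected one. An unmoderated two-way ANOVA was run as an alternative.

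Named genes were those at or above the median level of 5.29: the 10 smallest p of the difference in each direction, up to 6 for each kind of agreement between the experiments, up to 5 members of each list with 2 fixed members, and the genes of the study's quantitative PCR. Gdf15, Chac1, Atf3, Slc38a2, Cth, Slc7a1, Slc1a4, Iars1, Aars1, Dnajb1, Cryab, Arc, Egr4, Srf, Pdk4, Ppargc1a and any other gene named outside this rule were picked after their values were seen. The members and the 38 lists were chosen with earlier results of these data known. Lists are described by counts and medians with no test. Promoters came from the RefSeq table of build GRCr8, searched for 7 motifs. The number of arrays, 3 per group, limits the precision. Alternatives were the replicate number as a block, other variance models and normalisations, filters on clusters, and each array left out. The fit was tested on simulated data with known changes. Tables were joined in Python 3.11.15 (pandas 2.3.3).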

Additional observations from a re-analysis of the deposited data

Results flagged for a closer look

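In 11 named genes all 3 ST arrays lay wholly on one side of their controls and all 3 TC arrays wholly on the opposite side. Over all genes 25 (0.172%) stood wholly above under stretch and wholly below at 8 Hz, and 46 (0.316%) the reverse. The difference between the effects was 0.77 for Rbmx, 0.89 for Ammecr1, 0.73 for B3galnt1, 0.80 for Bora, 0.59 for Prim1 and 0.55 for Slc41a1. It was -1.14 for Cfap141, -0.91 for Gnrh1, -0.84 for Pelo, -0.81 for Spef1 and -0.75 for Bud23. These genes had been named for a small p of the difference or for opposite calls. Both ways of naming favour arrays that lie apart on opposite sides, so their separation and their p are descriptions. None passed the adjusted p, which was 0.52 for Pelo and 0.52 for Cfap141. No explanation of these patterns was tested.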

How the results depend on the processing

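The count of 0 clusters at an adjusted p under 0.05 held under every alternative but 1, the fit without ST replicate 3, where it was 1 (range 0 to 1 with 1 array left out). The 2099 clusters past the threshold rose to 3328 once the same-numbered arrays of an experiment formed a replicate block. They numbered 1227 at 1.5-fold and ranged from 1625 to 2667 with 1 array left out. Fits on fewer clusters gave 1286 with dim clusters left out and 914 with 1 cluster per gene of 1 symbol. Those lower counts do not show a fall in the share called: 914 is of 14557 genes, against 776 of the same genes in the main fit. The 14 genes of the same direction numbered 31 with that block, 9 with the spread estimated in each experiment, 8 with dim clusters left out, 23 with genes of 1 symbol only and 2 at 1.5-fold (7 to 26 with 1 array left out). The 23 of opposite direction numbered 43 with that block, 11 with the spread estimated in each experiment and 0 at 1.5-fold (11 to 47 with 1 array left out). Deviations of same-numbered arrays correlated at 0.2949, 0.1242 and 0.2415 in the stretch experiment and at 0.2466, 0.2259 and 0.0454 in the pacing experiment, and every array correlated best with its own number. All pairs were over 0.1 in the stretch experiment but not in the pacing experiment. For the difference the block therefore stayed an alternative, and the main fit ignores any pairing that the cultures had. The labels do not state a pairing, though same-numbered arrays of an experiment pooled equal numbers of technical replicates. With the block 704 genes were past the threshold and higher and 702 lower, against 326 and 450 without it. The counts under the block stand beside many of the lists it moved but not all. The smooth muscle and pericyte list, not described above, had 3 of 7 differences past the threshold and higher under the block, and 0 without it. Under the block 15 named genes crossed the threshold, among them Terc. Centring each array on its median gave 388 genes higher and 364 lower, against 326 and 450. Of 107 named genes 71 kept their side of the threshold under every alternative; the sign changed in 0 of those past it and in 8 of those not past it; of the 71 past it, 54 stayed so with any 1 array left out. With 3 arrays a group, the 95% interval of the difference had a median half-width of 0.46, and smaller differences were mostly not detectable.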

Other observations

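Lists not described above had median differences from -0.21 to 0.29 on the log2 scale and few members past the threshold. Of 19 ribosomal protein and biogenesis genes, 2 (10.5%, against 3.09% of all genes) stood lower past the threshold, the nucleolar factors Gnl3 (-0.72 ± 0.27) and Wdr12 (-0.54 ± 0.20), and 1 (5.26%, against 2.24%) higher, Rpl5 (0.62 ± 0.23), with a median of -0.21. Gnl3 and Wdr12 missed the threshold without static replicate 2, 1 Hz replicate 3 or TC replicate 2 (-0.62 to -0.58 and -0.47 to -0.45), and Rpl5 without static replicate 1, ST replicate 2, 1 Hz replicate 3 or TC replicate 2 (0.49 to 0.54). The chromatin protein Hmga1 stood at -0.86 ± 0.21, with a stretch effect of -0.79 and a pacing effect of 0.07, and the growth arrest gene Gadd45a at -1.01 ± 0.31. Of 29 NF-kappaB and cytokine genes 2 (6.9%, against 3.09% of all genes) stood lower past the threshold, the chemokine Cxcl10 (-0.75) and the subunit Relb (-0.60). These 4 were past it with any 1 array left out. Under the replicate block 5 of the 29 were lower (against 4.82% of all genes) and 2 higher (against 4.84%).

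Of 14 junction genes 10 differences lay above 0. Under the replicate block 5 were past the threshold on the positive side (against 4.84% of all genes). Without the block 2 were past the threshold (14.3%, against 2.24% of all genes), Dsp, which encodes desmoplakin (0.46 ± 0.19), and Cgnl1 (0.70 ± 0.27). Both missed it without static replicate 2 or 3, ST replicate 2, 1 Hz replicate 1 or 3, or TC replicate 2 (0.35 to 0.47 and 0.58 to 0.65). In the respiratory chain 24 of 25 differences lay above 0 with a median of 0.11. The lists of potassium channels (0.14, 17 genes), proteasome and ubiquitin ligases (-0.03, 17 genes) and EGF family ligands (-0.03, 20 genes) had 0 members past the threshold for the difference. In the EGF family list 2 stretch effects were past it and higher (against 3.11% of all genes) and 2 lower (against 3.85%). For pacing 1 was higher (against 1.74%). Under the replicate block 2 differences of the EGF family list were higher and 2 lower, and 1 of the proteasome list was lower (against 4.84% and 4.82% of all genes). These genes were named after their values were seen.

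Of the 5 further motifs, each searched on both strands, CCAAT was found in 9 of 10 cholesterol synthesis promoters (90.0%), in 29.4% to 66.7% of those of the 5 other lists searched and in 35.2% of all promoters of measured genes. TTTGAA was found in 7 of 21 mitotic promoters (33.3%), in 2.94% to 11.8% of the other lists and in 14.8% of all. TGACGTCA was found in 4 of 22 immediate early promoters (18.2%), in 0% to 6.67% of the other lists and in 2.17% of all. TGACNNNGC was found in 4 of 17 NRF2 promoters (23.5%) and in 11% of all, but also in 4 of 10 cholesterol synthesis promoters (40.0%) and 9 of 34 of the integrated stress response (26.5%). TCACNCCAC was found in 0 of 10 cholesterol synthesis promoters, in 0% to 4.76% of the other lists and in 0.87% of all. These are matches of letters within these promoter windows and carry no test.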
